A study of Mus musculus with 6 samples.

Results

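The endoplasmic reticulum (ER) chaperones and protein disulfide isomerases were examined in RNA-seq of white adipose tissue (WAT) from 3 control and 3 Ntsr2 AKO mice. The 41 genes encode proteins that fold, oxidise, isomerise or hold secretory proteins inside the ER. They were matched by gene symbol, with no threshold on a measured value, and all 41 were among the 21456 genes of the deposited table. NTSR2 is a receptor of the peptide neurotensin, and the study asked what its loss from white adipocytes does. Both groups carried Ntsr2 flox/flox, in which LoxP sites flank the whole gene, and Ntsr2 AKO mice carried Adipoq-cre in addition. Adipoq-cre is driven by the adiponectin promoter, so it acts in all adipocytes, brown adipocytes included, and leaves the other cells of the tissue with the gene. All mice ate a chow diet. Their age, sex and fat depot are not given in the sources used here. The samples were whole tissue and numbered 3, 4 and 5 in each group, and all triplets of values below are in that order.

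The ER is where secreted and membrane proteins fold. HSPA5, also called BiP, is an HSP70 that binds unfolded chains with help from DNAJ co-chaperones and nucleotide exchange factors, while calnexin and calreticulin hold glycoproteins and PDI-family enzymes form and shuffle disulfide bonds. When unfolded proteins build up, the unfolded protein response (UPR), through its sensors PERK, IRE1 and ATF6, raises the transcription of many of these genes. Adipocytes secrete adipokines and, with the stromal cells of the tissue, collagens, all of which pass through this machinery.

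Values are normalized counts, that is reads per gene after division by each mouse's size factor. From 54085088 to 66098226 reads were recovered per mouse, and every control mouse had more than every Ntsr2 AKO mouse. Ntsr2 itself stood at 83.8, 64.0 and 153 in the controls and at 3.10, 8.29 and 0 in the Ntsr2 AKO mice (log2 fold change -4.81, SE 0.91), so the labels hold for the targeted gene. The adipocyte markers Adipoq, Plin1, Cidec, Lipe, Pnpla2, Fabp4 and Cfd were all measured, none had an unadjusted p under 0.05, and their summed count spanned 2400620 to 3485620 in the controls and 2802320 to 2948720 after the deletion. Skeletal muscle transcripts were present in control 5 (summed count over 7 markers, 2433540), Ntsr2 AKO 4 (74504) and Ntsr2 AKO 5 (166096), against 391 to 1448 in the other mice. For that reason the main counts are also given for control 3, control 4 and Ntsr2 AKO 3 alone. Nothing in the sources states how the 3 tissue samples of a group were drawn, and in whole tissue fewer cells of a type and less RNA per cell cannot be told apart.

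The 41 genes differed from each other in direction. Of the 41 genes, the mean log2 value was lower in 25 after the deletion and higher in 16, with a median log2 fold change of -0.06 and a range from -0.72 to 0.42, where all 16157 tested genes had a median of -0.01 and 51% of them were lower. Under quantile normalization 21 of the 41 were lower. The largest decreases in mean were in the HSP70 core (Hspa5, -39.4%, and Hyou1, -36.8%) and in the collagen chaperone Serpinh1 (-36.2%). Disulfide oxidases and all but 1 of the prolyl isomerases had log2 fold changes above 0.

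**Figure D1:**
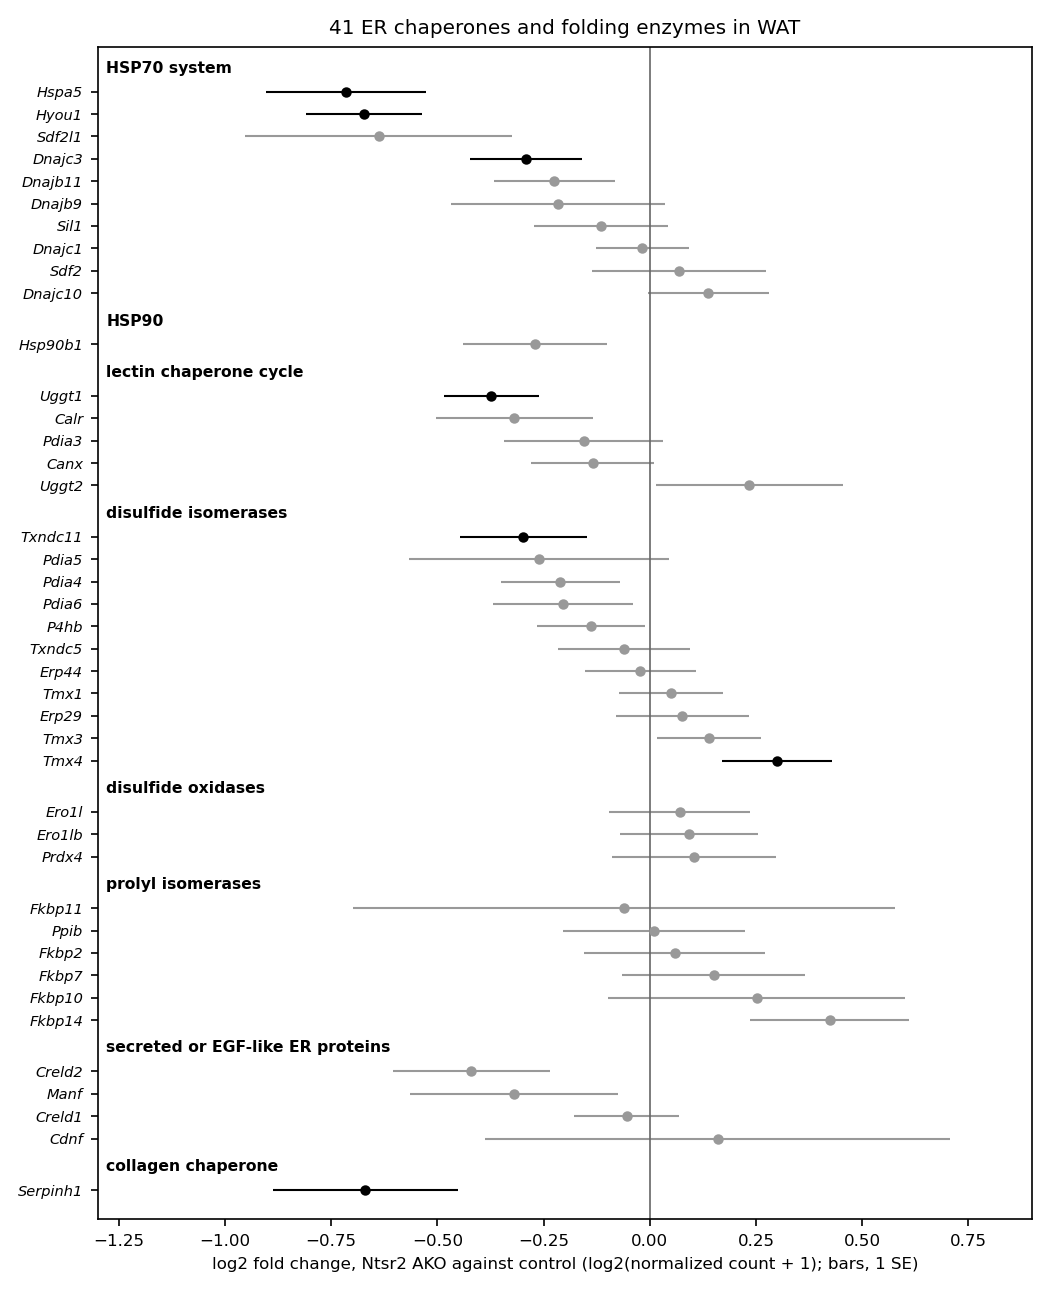
Log2 fold change of each of the 41 genes (x axis, log2(normalized count + 1), Ntsr2 AKO against control) by role, with bars of 1 SE from limma over 3 mice a group; black points mark genes whose groups did not overlap. Hspa5, Hyou1 and Serpinh1 lie farthest to the left, between -0.67 and -0.72, and Fkbp14 farthest to the right at 0.42.

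By limma, no gene of the 41 passed an adjusted p of 0.05 over all genes, against 0.00619% of all tested genes (1 gene, Egr1). At an unadjusted p under 0.05, 4 of the 41 were lower (Hspa5, Hyou1, Uggt1 and Serpinh1) and 0 higher, beside 5.27% of all tested genes lower and 3.08% higher. Tested on the recovered reads with edgeR's quasi-likelihood method, again 0 of the 41 passed after adjustment. At an unadjusted p under 0.05 by edgeR, 4 of the 41 were lower and 1, Tmx4, higher, beside 4.9% and 3.29% of all tested genes. DESeq2 on the recovered reads passed 2, Hspa5 (adjusted p = 0.0349) and Hyou1 (adjusted p = 0.0101), both lower, where it passed 1.05% of all genes as lower and 0.45% as higher. The normalized counts of the groups did not overlap, with Ntsr2 AKO lower, for 6 of the 41 (14.6%): Hspa5, Hyou1, Dnajc3, Uggt1, Txndc11 and Serpinh1. They did not overlap with Ntsr2 AKO higher for Tmx4 alone. Over all tested genes these shares were 8.16% and 6.82%.

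These counts moved with single mice, as did the shares over all genes. Without control 3, 10 of the 41 were lower at an unadjusted p under 0.05 by limma and 2 higher, beside 4.67% of all tested genes lower and 3.73% higher. Without Ntsr2 AKO 4 there were 2 lower, Hspa5 and Hyou1, beside 2.56% of all tested genes. With fewer mice more genes have groups without overlap. The genes lower in every Ntsr2 AKO mouse numbered 16 of the 41 without control 3, beside 13.3% of all tested genes, and 12 without Ntsr2 AKO 5, beside 11.9%. Among control 3, control 4 and Ntsr2 AKO 3, 32 of the 41 had a negative log2 fold change, and 15 were lower in Ntsr2 AKO 3 than in both controls, beside 28.2% of all tested genes. By limma 0 of the 41 and 1.12% of all tested genes were lower at an unadjusted p under 0.05 in these 3 mice.

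Hspa5, the ER's HSP70 and the best known target of the UPR, had 35208, 51252 and 41146 normalized counts in control mice and 27727, 21847 and 27703 in Ntsr2 AKO mice. The lowest control mouse was 3 and lay above every Ntsr2 AKO mouse. In GENCODE M21 (GRCm38) the gene lies at chr2:34771970-34777547, + strand. The log2 fold change was -0.72 (SE 0.19, limma unadjusted p = 0.00702, adjusted p = 0.522). It ranged from -0.84 to -0.57 as each mouse was left out in turn, with an unadjusted p between 0.00484 and 0.0324. With control 3, control 4 and Ntsr2 AKO 3 alone it was -0.62 (limma unadjusted p = 0.208).

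Hyou1 encodes the large HSP70-related protein of the ER, a nucleotide exchange factor for HSPA5. At chr9:44379490-44392369, + strand, its counts were 4994, 5246 and 4943 in control mice, within a narrow band, and 3779, 2986 and 2835 in Ntsr2 AKO mice. The log2 fold change was -0.67 (SE 0.14, limma unadjusted p = 0.00188, adjusted p = 0.499) and stayed between -0.80 and -0.59 with any mouse left out. With control 3, control 4 and Ntsr2 AKO 3 alone it was -0.44 (limma unadjusted p = 0.124), so the level in Ntsr2 AKO 3 was the nearest of its group to the controls.

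Dnajc3, known as P58IPK, is a co-chaperone of HSPA5. It counted 7443, 8038 and 8939 in control mice and 7373, 5900 and 6691 in Ntsr2 AKO mice, so that Ntsr2 AKO 3 came just below control 3. The log2 fold change was -0.29 (SE 0.13, limma unadjusted p = 0.0631, adjusted p = 0.606), and under quantile normalization the groups overlapped.

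The other members of the HSP70 system had overlapping groups. Sdf2l1, which holds HSPA5 and its co-chaperones in complex, had 518, 660.3 and 949 in control mice and 408, 333 and 633 in Ntsr2 AKO mice. Its log2 fold change, -0.64 (SE 0.31, limma unadjusted p = 0.0833), was close to that of Hspa5 but with a wider spread. The DNAJ co-chaperones Dnajb11 (log2 fold change -0.22), Dnajb9 (-0.22) and Dnajc1 (-0.02) and the exchange factor Sil1 (-0.12) had smaller values, and the disulfide reductase Dnajc10 (0.14) and Sdf2 (0.07) were slightly higher. In all, 8 of the 10 genes of this system were lower, 7 under quantile normalization, with a median log2 fold change of -0.22. Their summed count was 63502 to 84498 in control mice and 46313 to 55669 in Ntsr2 AKO mice, without overlap, and its mean differed by -28.9%. Hspa5 made up the largest part of that sum.

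**Figure D2:**
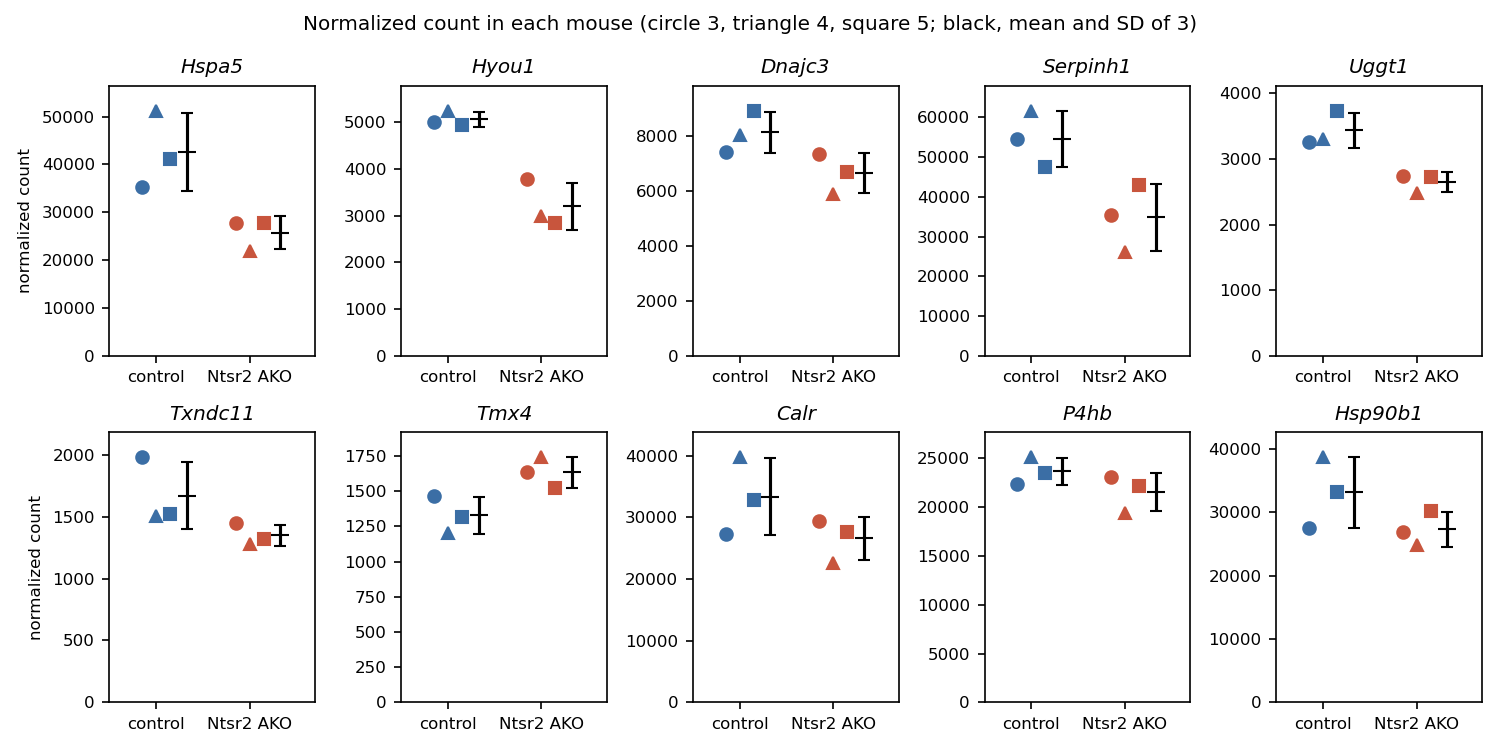
Normalized count (y axis, from 0) in each mouse for the 7 genes whose groups did not overlap and for Calr, P4hb and Hsp90b1, which with Serpinh1 and Hspa5 have the highest levels per kilobase of exon; circles, triangles and squares are mice 3, 4 and 5, and black bars are the mean and SD of 3. Every Ntsr2 AKO mouse lies below every control mouse for Hspa5, Hyou1, Dnajc3, Serpinh1, Uggt1 and Txndc11 and above for Tmx4, while the groups overlap for Calr, P4hb and Hsp90b1.

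The promoters were searched for sequences that the UPR factors ATF6 and XBP1 are known to bind, since many ER chaperone genes carry them. RefSeq windows (GRCm38.p6, from 250 bases before to 50 after each start) matched 35 of the 41 genes. Hyou1, Sil1, Tmx3, Erp29, Fkbp10 and Manf had no window. The 250 bases before the RefSeq start of Hspa5, at chr2:34771840-34772089 on the + strand, are shown because this gene had the largest log2 fold change in size and holds a pair of the motifs. The RefSeq start, 34772090, lies 120 bases after the GENCODE start given above, so the last 120 of these bases, the ERSE among them, are inside the gene as GENCODE draws it. Capitals mark the motif TGACGTG and, nearer the start, the ER stress element (ERSE), which is CCAAT, 9 free bases and CCACG.
Hspa5: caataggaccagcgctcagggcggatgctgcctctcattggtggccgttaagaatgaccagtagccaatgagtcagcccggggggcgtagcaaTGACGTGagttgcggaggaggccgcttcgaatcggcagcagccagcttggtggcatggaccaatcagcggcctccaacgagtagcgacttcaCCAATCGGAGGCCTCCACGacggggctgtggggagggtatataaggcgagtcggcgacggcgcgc

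An exact ERSE on either strand was in the windows of 8 of the 35 genes (22.9%), against 37 of 27025 genes with a window (0.137%). The ERSE-II (ATTGG, 1 free base, CCACG) was in 1 (2.86%), Dnajb11, against 0.0444%. TGACGTG was in 4 (11.4%), Hspa5, Txndc5, Txndc11 and Fkbp11, against 2.22%. None of the 3 searches shares a match with another in these windows. The ERSE sites are printed on their own strand, with the fixed ends in capitals and the free bases in lower case, and show how the ends recur while the middle differs from gene to gene.
Hspa5 (chr2:34772025-34772043, + strand): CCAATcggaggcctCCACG
Dnajb11 (ERSE-II, chr16:22857852-22857862, + strand): ATTGGcCCACG
Dnajc3 (chr14:118937827-118937845, + strand): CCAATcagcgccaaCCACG
Hsp90b1 (chr10:86705638-86705656, - strand): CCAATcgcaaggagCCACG
Hsp90b1 (chr10:86705533-86705551, + strand): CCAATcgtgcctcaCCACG
Calr (chr8:84847075-84847093, + strand): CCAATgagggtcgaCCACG
Canx (chr11:50325800-50325818, - strand): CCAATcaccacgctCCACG
Pdia6 (chr12:17266491-17266509, + strand): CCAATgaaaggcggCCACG
Ero1lb (chr13:12565682-12565700, - strand): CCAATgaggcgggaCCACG
Creld2 (chr15:88819520-88819538, - strand): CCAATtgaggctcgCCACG
The Hspa5 site lay 65 to 47 bases before the RefSeq start, and the other sites from 212 to 80 bases before it, apart from the ERSE-II of Dnajb11, which began 7 bases after the start. The genes with an ERSE were lower in 7 of 8 cases, with a median log2 fold change of -0.28, and those matched without one in 15 of 27, with a median of -0.02. The exception was Ero1lb at 0.09. These are descriptions of the windows and of the values, with no test, and binding in WAT was not measured. Many ER chaperone genes were already known to carry these sequences, so their shares among the matched genes are no finding of these data.

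Hsp90b1, the ER's HSP90 known as GRP94, had 27480, 38694 and 33186 normalized counts in control mice and 26800, 24861 and 30208 in Ntsr2 AKO mice. Control 3 lay below Ntsr2 AKO 5, so the groups overlapped (log2 fold change -0.27, SE 0.17, limma unadjusted p = 0.155). In the GENCODE M21 annotation (GRCm38) 15.7% of its exon bases overlap those of other genes. For Erp29 this share is 26.4%, for Ppib 25%, for Sdf2 16% and for Txndc5 11.9%, and it is 0% for Hspa5, Hyou1, Uggt1, Serpinh1, Dnajc3 and Tmx4. Whether the counting used strand is not stated, so reads of overlapping genes may be counted together.

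In the lectin chaperone cycle, which keeps glycoproteins in the ER until they have folded, 4 of 5 genes were lower (median log2 fold change -0.16). Uggt1, the glucosyltransferase that tags misfolded glycoproteins for another round (chr1:36140027-36244720, - strand), counted 3264, 3300 and 3737 in control mice and 2737, 2481 and 2731 in Ntsr2 AKO mice. The highest Ntsr2 AKO mouse lay well below the lowest control mouse. The log2 fold change was -0.37 (SE 0.11, limma unadjusted p = 0.0134, adjusted p = 0.523), and without Ntsr2 AKO 4 its unadjusted p was 0.0571. Its paralog Uggt2 ran the other way at a low level, 445, 383 and 554 against 429, 621 and 576, with overlap (log2 fold change 0.23, SE 0.22).

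Calr encodes calreticulin, a soluble lectin and calcium-binding protein of the ER. It had 27376, 39796 and 32903 in control mice and 29389, 22685 and 27694 in Ntsr2 AKO mice, and control 3 lay below Ntsr2 AKO 3 and 5 (log2 fold change -0.32, SE 0.19, limma unadjusted p = 0.13). Its membrane-bound counterpart Canx (-0.13) and their partner Pdia3, a disulfide isomerase for glycoproteins (-0.16), had smaller log2 fold changes.

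Among the 11 other disulfide isomerases, 7 were lower and 4 higher, with a median log2 fold change of -0.06, and under quantile normalization 5 were lower. P4hb, the archetypal protein disulfide isomerase and the beta subunit of collagen prolyl 4-hydroxylase, had 22346, 25090 and 23470 in control mice and 23034, 19386 and 22118 in Ntsr2 AKO mice. Its groups overlapped and differed little (log2 fold change -0.14, SE 0.13). Pdia4 (-0.21), Pdia5 (-0.26) and Pdia6 (-0.20) were lower on average with overlap, and Txndc5 (-0.06), the retention factor Erp44 (-0.02), the non-catalytic Erp29 (0.08), Tmx1 (0.05) and Tmx3 (0.14) were near 0.

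Txndc11, a membrane-anchored thioredoxin-domain protein, had 1981, 1504 and 1522 in control mice and 1446, 1276 and 1323 in Ntsr2 AKO mice. Control 3 stood above the rest, and the other two controls were close to Ntsr2 AKO 3 (log2 fold change -0.30, SE 0.15, limma unadjusted p = 0.0882). Under quantile normalization its groups overlapped. Tmx4, a membrane-anchored PDI-family protein, was the 1 gene of the 41 higher in every Ntsr2 AKO mouse, 1464, 1202 and 1318 against 1638, 1741 and 1518 (log2 fold change 0.30, SE 0.13, limma unadjusted p = 0.0552, adjusted p = 0.6). By edgeR its unadjusted p was 0.0426 and by DESeq2 0.0445.

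The disulfide oxidases pass electrons from the isomerases onward. All 3 were higher on average by small amounts, with overlapping groups, namely Ero1l (log2 fold change 0.07), Ero1lb (0.09) and the peroxiredoxin Prdx4 (0.10). Without control 5, 2 of the 3, Ero1lb and Prdx4, were slightly lower.

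The prolyl isomerases, which turn peptide bonds before proline and are much used by collagen, were lower in 1 of 6 cases and had a median log2 fold change of 0.10. Without Ntsr2 AKO 5, 5 of the 6 were lower, so their direction rests on that mouse. Fkbp14 had the largest log2 fold change above 0 of the 41 genes, 0.42 (SE 0.19, limma unadjusted p = 0.0598), from 1351, 935 and 914 in control mice and 1322, 1338 and 1576 in Ntsr2 AKO mice. Control 3 lay within the Ntsr2 AKO range. Fkbp10, a collagen chaperone, varied more within groups than between them, with 686, 1349 and 986 against 935, 905 and 1820 (log2 fold change 0.25, SE 0.35). Ppib, or cyclophilin B (0.0092), Fkbp2 (0.06) and Fkbp7 (0.15) were near 0, and Fkbp11 (-0.06, SE 0.64) varied too much between mice to place.

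Of the secreted or EGF-like ER proteins, 3 of 4 were lower, and 2 under quantile normalization. Creld2, a UPR-induced protein, had 1692, 2417 and 2066 in control mice and 1547, 1283 and 1775 in Ntsr2 AKO mice, with Ntsr2 AKO 5 above control 3 (log2 fold change -0.42, SE 0.18, limma unadjusted p = 0.058). Manf, a UPR-induced factor that binds HSPA5, had a log2 fold change of -0.32 (SE 0.25). Creld1 (-0.05) and the Manf paralog Cdnf (0.16, SE 0.55) showed no shift beyond their spread.

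Serpinh1, or HSP47, (chr7:99345376-99353239, - strand) is the chaperone dedicated to procollagen and had the highest level per kilobase of exon of the 41 genes. It counted 54439, 61712 and 47614 in control mice and 35402, 26075 and 43065 in Ntsr2 AKO mice. The groups did not overlap, although Ntsr2 AKO 5 came close to control 5. The log2 fold change was -0.67 (SE 0.22, limma unadjusted p = 0.0188, adjusted p = 0.553). Its unadjusted p was 0.0584 without control 4 and 0.0663 without Ntsr2 AKO 4, and the log2 fold change then was -0.58 and -0.48.

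Per kilobase of exon (GENCODE M21, all exons of a gene merged), mean levels in control mice ran from 36.0 for Uggt2 to 22345 for Serpinh1. The next were Calr (11583), Hspa5 (10058), P4hb (8261) and Hsp90b1 (8214), followed by Pdia3, Pdia6, Canx and Pdia4. In Ntsr2 AKO mice Serpinh1 was at 14264, Calr at 9232, P4hb at 7519, Hsp90b1 at 6768 and Hspa5 at 6091, so Hspa5 went from the third to the fifth place. The control ranges of Calr, Hspa5, P4hb and Hsp90b1 overlapped in this order, neighbour with neighbour. Counts of the 5 most counted genes, Serpinh1, Hspa5, Hsp90b1, Calr and P4hb, made up 54.8% of the sum over the 41 in control means and 49.1% in Ntsr2 AKO means.

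**Figure D3:**
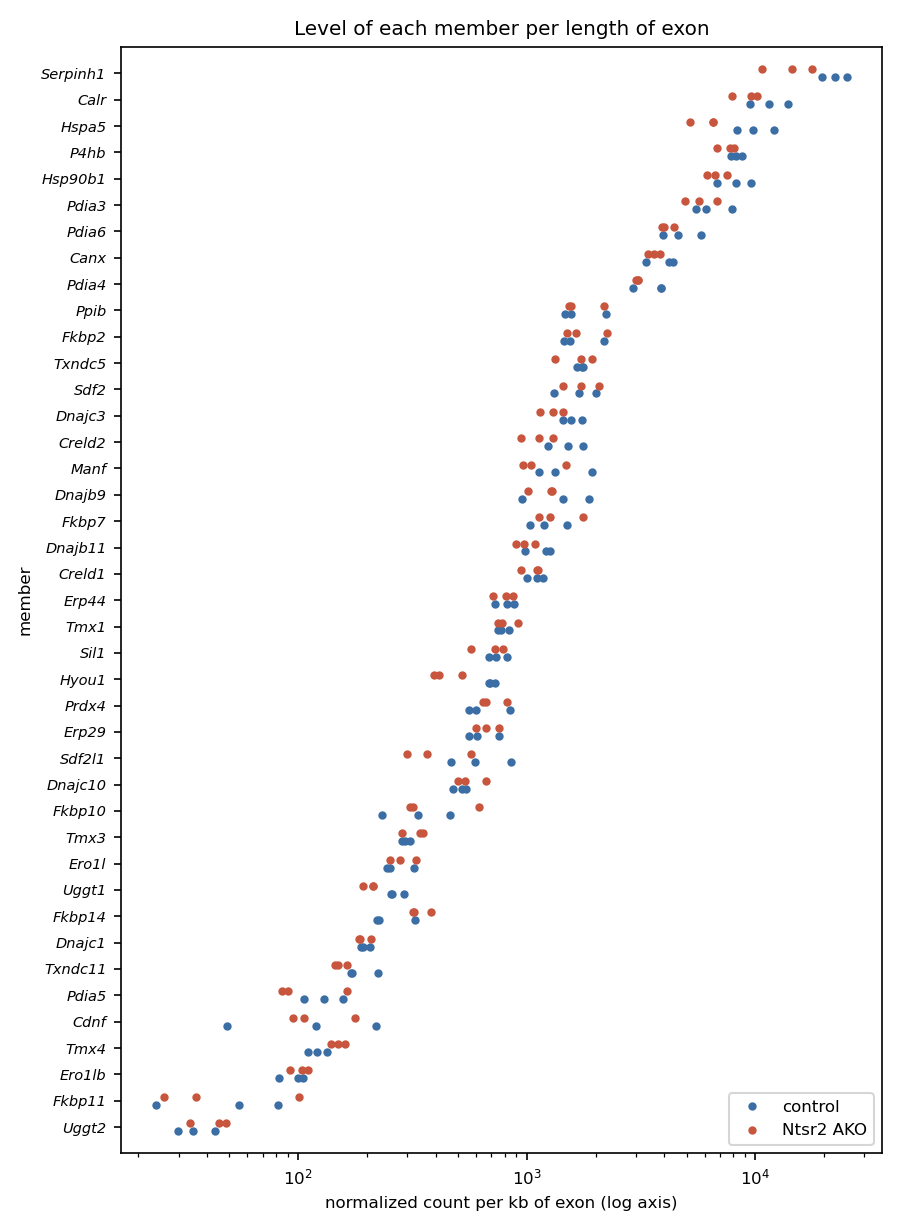
Normalized count per kilobase of exon (x axis, log scale) for each of the 41 genes, in order of the control mean, with 1 point per mouse (blue, control; red, Ntsr2 AKO). Levels span from 36.0 (Uggt2) to 22345 (Serpinh1) in control means, and the red points of Serpinh1 and Hspa5 lie left of all their blue points.

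The sum over the 41 genes was 304228, 389149 and 330751 in control mice and 279618, 245710 and 305521 in Ntsr2 AKO mice. Ntsr2 AKO 5 lay just above control 3, so the sums overlapped, and their means differed by -18.9%. Mice within a group differed in concert across the list. Control 4 was the highest control mouse for 26 of the 41 genes and Ntsr2 AKO 5 the highest Ntsr2 AKO mouse for 25, and both held for the same gene in 21 of 41 (51.2%), against 17.6% of all tested genes. For the prolyl isomerases this was so in 5 of 6. Ntsr2 AKO 4 was the lowest of its group for 22 genes.

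Markers of stromal and immune cells had a like order in part. The summed count of 7 fibroblast and progenitor markers was highest in Ntsr2 AKO 5 (303608) and ran from 145064 to 201943 in control mice, with control 5 above control 4. Col1a1 counted 22687, 59429 and 44889 in control mice and 29264, 21834 and 99542 in Ntsr2 AKO mice, so control 4 and Ntsr2 AKO 5 were highest. The 5 macrophage markers measured of 6 summed to 77344 in control 4 and 63959 in Ntsr2 AKO 5, the highest of each group, and to 25181 to 47164 in the other mice. No marker in these lists had an unadjusted p under 0.05 between groups, and their part in the spread of the ER genes was not tested.

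**Figure D4:**
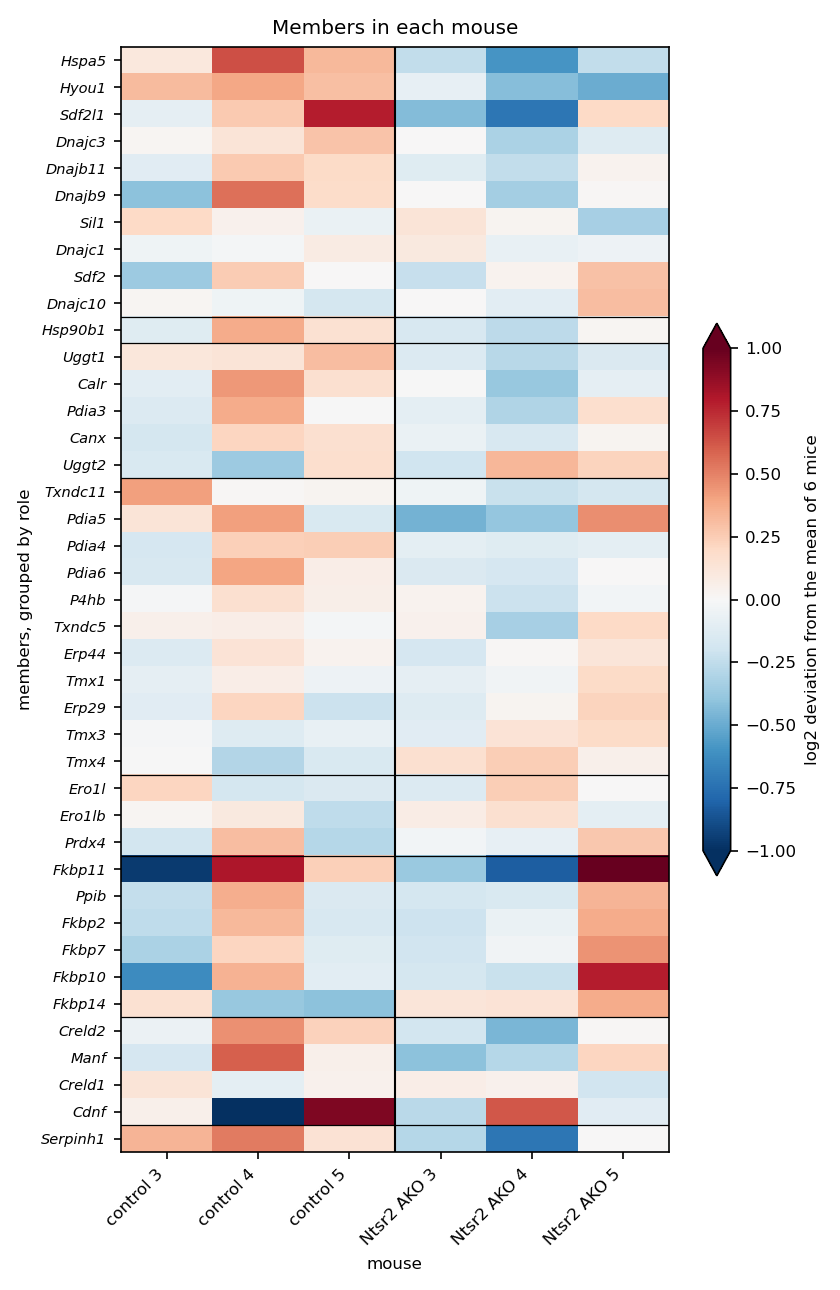
Log2 deviation of each of the 41 genes (rows, by role) from its mean over 6 mice, for each mouse (columns); the colour scale is capped at -1 and 1. Control 4 is the highest control mouse in 26 rows and Ntsr2 AKO 5 the highest Ntsr2 AKO mouse in 25, a pattern clearest among the prolyl isomerases.

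The genes around this machinery were read from lists of the same pathway. Of 10 UPR sensors and factors, 9 were lower (median log2 fold change -0.18), beside 51% of all tested genes. At an unadjusted p under 0.05 by limma 1 was lower, beside 5.27% of all tested genes. That was Atf4, the translation-controlled factor downstream of PERK, with 11264, 8919 and 10675 in the controls against 8725, 7386 and 6002 in the Ntsr2 AKO group (log2 fold change -0.49, SE 0.17, limma unadjusted p = 0.0251, adjusted p = 0.564). The IRE1 target Xbp1 had a larger but less even difference, -0.89 (SE 0.45), with Ntsr2 AKO 3 above control 4 and 5. The sensors Ern1 (-0.23), Atf6 (-0.18) and Eif2ak3, which encodes PERK (-0.02), did not have an unadjusted p under 0.05. Atf6 was lower in every Ntsr2 AKO mouse, as were 8.16% of all tested genes. Ddit3 (-0.18, limma unadjusted p = 0.327) had overlapping groups. Xbp1 values are whole-gene counts and do not separate the spliced form.

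Of 15 genes of ER-associated degradation, which removes misfolded proteins, 11 were lower (median -0.10), beside 51% of all tested genes. At an unadjusted p under 0.05 by limma 1 was lower, beside 5.27% of all tested genes. This gene was Ubxn4, an anchor for the VCP ATPase (log2 fold change -0.44, SE 0.13, limma unadjusted p = 0.0111). In the translocon, signal peptidase and N-glycosylation list 11 of 24 were lower (median 0.02), beside 51% of all tested genes. In that list 0 had an unadjusted p under 0.05 by limma or edgeR. Over all tested genes limma had 5.27% lower and 3.08% higher at that p, and edgeR 4.9% and 3.29%. Of 6 glucosidases and KDEL receptors, 1 was lower at an unadjusted p under 0.05 by limma, beside 5.27% of all tested genes, and 0 higher. It was Mogs, which trims the first glucose from new glycans (-0.38, SE 0.11, limma unadjusted p = 0.0126).

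Of 10 collagen hydroxylases, enzymes that work beside Serpinh1 on procollagen, 6 were lower, where 51% of all tested genes were. By limma 2 were lower at an unadjusted p under 0.05, beside 5.27% of all tested genes. P4ha1, the catalytic partner of P4hb in collagen prolyl 4-hydroxylase, had 4822, 6220 and 5989 in control mice and 3467, 3280 and 3849 in Ntsr2 AKO mice without overlap. Its log2 fold change was -0.68 (SE 0.14, limma unadjusted p = 0.00187, adjusted p = 0.499, DESeq2 adjusted p = 0.00759). Plod3, a lysyl hydroxylase, had -0.43 (SE 0.15, limma unadjusted p = 0.027). Of 18 secreted adipocyte and matrix proteins that pass through the ER, 9 were lower, where 51% of all tested genes were. By limma 3 of them were lower at an unadjusted p under 0.05, beside 5.27% of all tested genes. They were Angptl4, an inhibitor of lipoprotein lipase (-0.64), and the collagen VI chains Col6a1 (-0.35) and Col6a2 (-0.31). Adipoq (0.0095, SE 0.22) was near 0, and Col1a1 (0.02, SE 0.61) varied too much between mice to place.

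Chaperones outside the ER were measured beside those inside it. All 18 cytosolic and mitochondrial chaperones were lower, with a median log2 fold change of -0.73. By limma 12 had an unadjusted p under 0.05, and 13 had groups without overlap. DESeq2 passed 10 at an adjusted p of 0.05, but 0 passed it by limma or edgeR. Over all tested genes 51% were lower, 5.27% at that unadjusted p and 8.16% without overlap. DESeq2 passed 1.05% of all genes as lower. Hspb1, a small heat shock protein, had 8053, 7428 and 9539 in the controls against 2896, 3029 and 3118 in the Ntsr2 AKO group (log2 fold change -1.46, SE 0.13, limma adjusted p = 0.0643). The inducible Hsph1 (-1.45), Hsp90aa1 (-1.02), Dnajb1 (-1.35) and Bag3 (-0.73) and the abundant Hspa8 (-0.97), Hsp90ab1 (-0.73), Dnaja1 (-0.97), Hspa4 (-0.45) and Dnaja2 (-0.35) made up the rest with an unadjusted p under 0.05, together with Hspa1a (-1.79) and Hspa1b (-1.72), near-identical copies whose reads may be split between them. Of the mitochondrial chaperones, Hspd1 was at -0.28 with groups that did not overlap, Hspe1 at -0.27, Trap1 at -0.11 and Hspa9 at -0.09. Both sets of values come from the same mice and the difference between the lists was not tested.

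**Figure D5:**
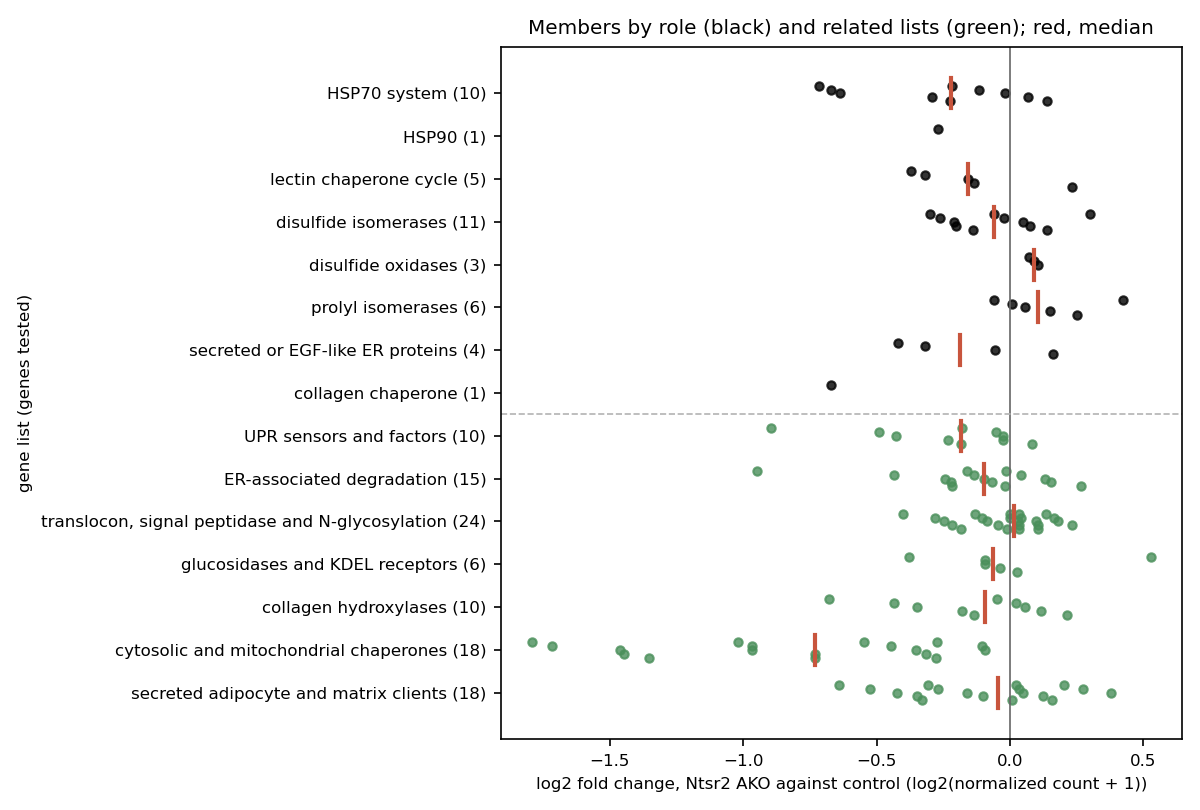
Log2 fold change (x axis, Ntsr2 AKO against control) of each tested gene in the roles of the 41 ER genes (black) and in the related lists (green), with the median of each list of more than 1 gene in red and the number of genes in brackets. The cytosolic and mitochondrial chaperones have a median of -0.73, the HSP70 system of the ER -0.22 and the translocon list 0.02.

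Immediate early genes, which respond quickly to stimuli, also differed between the groups. All 9 were lower in Ntsr2 AKO mice, 6 with an unadjusted p under 0.05 by limma (Fos, Fosb, Junb, Egr1, Egr2 and Ier2). Over all tested genes 51% were lower, and 5.27% at that p. The summed count of the 9 was 13370 to 21902 in control mice and 7331 to 8584 in Ntsr2 AKO mice. The part of these genes in the values of Hspa5 and the other chaperones was not tested. Of the B cell and plasma cell markers, Igj and Mzb1 were higher in every Ntsr2 AKO mouse, as were 6.82% of all tested genes. Igj, the joining chain of secreted antibodies, counted 125, 76.3 and 336 in the controls against 2643, 638 and 859, and Mzb1, a plasma cell protein of the ER, 12.9, 4.13 and 18.2 against 124, 78.8 and 29.3, though 57.2% of the exon bases of Mzb1 overlap another gene. The groups overlapped for Cd79a, Ms4a1, Tnfrsf17 and Sdc1, of which Cd79a (log2 fold change -0.09) and Sdc1 (-0.66) were lower on average. The 5 endothelial markers summed to 15778 to 24332 in control mice and 15840 to 21809 in Ntsr2 AKO mice. The 5 mesothelial markers summed to at most 470, and 2 of them reached the level to be tested. Krt19 (134, 413 and 84.4 against 68.1, 32.1 and 67.8, log2 fold change -1.64, limma unadjusted p = 0.0369) was lower in every Ntsr2 AKO mouse, as were 8.16% of all tested genes. Lrrn4 was higher on average, with overlapping groups (log2 fold change 0.39, SE 0.41). The epithelial markers summed to at most 256, and the 2 pancreatic acinar markers measured of 6 to at most 1039.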

How the data were processed

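RNA from WATs of 3 control and 3 Ntsr2 AKO mice was sequenced from poly-A libraries (NEBNext Ultra, Illumina). The authors trimmed reads with Trimmomatic, aligned them with Hisat2, quantified genes with StringTie and used DESeq2. The submitters' processing notes name mm10, and tool versions and the annotation are not given in the sources used here. The deposited values are a signal, the read count divided by a size factor for each mouse. All values (100%) were whole multiples of 1 step per column (tolerance 0.01 read), so whole reads were recovered, 54085088 to 66098226 per mouse. At this depth the number of mice limits precision. Nothing says how the samples of a group were taken, so p-values measure the spread between these samples. No pair of columns within a group agreed within sampling noise, and pairs across the groups were not compared.

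Values were analysed in R 4.3.3 as log2(normalized count + 1), a scale that understates changes of low genes. The 16157 genes with a mean of at least 10 were fitted with limma 3.58.1 (lmFit, eBayes with trend) without covariates, and p-values were adjusted by Benjamini-Hochberg over all of them. edgeR 4.0.16 (quasi-likelihood, TMM) and DESeq2 1.42.0 on recovered reads, quantile normalization, pseudocounts of 0.1 and 5, no filter, a mean of at least 50, eBayes without trend, a replicate block and leaving out each mouse were the alternatives. The fit of control 3, control 4 and Ntsr2 AKO 3 was chosen after seeing the data. The scripts were tested on simulated data. Every member is named, with values in each mouse where the groups did not overlap, the unadjusted p was under 0.05 or the level per kilobase was among the 5 highest, and genes of the related pathway lists are named where the unadjusted p was under 0.05. Marker lists are given by their sums and by the genes that differed. Other genes named with values, such as Xbp1, Sdf2l1 and Fkbp14, were picked with their values in view. The members and lists were chosen with earlier results of these data known. Promoter windows came from RefSeq (GRCm38.p6), and gene positions and exon lengths from GENCODE M21 (GRCm38). Protein sequences were not analysed here.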

Additional observations from a re-analysis of the deposited data

How the results depend on the processing

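Of the 41 genes, 22 kept the sign of their log2 fold change in all 16 alternatives, 18 of them lower and 4 higher (Dnajc10, Uggt2, Tmx4 and Fkbp14). The other 19 changed sign in at least 1, all with a log2 fold change of at most 0.25 in size: 18 when a mouse was left out, 6 under a setting with all mice, and 13 with control 3, control 4 and Ntsr2 AKO 3 alone. The number past an adjusted p of 0.05 was 0 in every fit except DESeq2, where it was 2 (Hspa5 and Hyou1), and DESeq2 called 220 genes in all where limma called 1. At an unadjusted p under 0.05, 1 gene of the 41, Tmx4, was higher under quantile normalization, no filter, edgeR and DESeq2. The shares of all tested genes were 3.92%, 2.89%, 3.29% and 4.01% in that order. Lower genes at that p ranged from 2 to 10 as each mouse was left out (2.56% to 6.82% of all genes) and higher genes from 0 to 2 (1.44% to 3.73%), and with the 3 mice alone there were 0 lower (1.12%). Genes lower in every Ntsr2 AKO mouse ranged from 6 to 16 with a mouse left out (10.1% to 16.1% of all genes) and were 15 with the 3 mice (28.2%). Under quantile normalization they were 4, and the share of all genes was not computed for that setting. It moved the median of all genes to 0.05 and that of the members to -0.02. In fits with 1 Ntsr2 AKO mouse, that mouse is assumed to vary like the controls. Whether replicate numbers pair the mice cannot be settled with so few mice a group. Deviations of same-numbered mice correlated at 0.445, -0.242 and 0.407 (numbers 3, 4 and 5). Control 3 and control 5 correlated best with their own number, and control 4 did not. With the replicate block 5 of the 41 were lower at an unadjusted p under 0.05, instead of 4 (5.36% of all genes instead of 5.27%), and 0 passed an adjusted p of 0.05 by limma. The widest errors were those of Fkbp11 (SE 0.64) and Cdnf (SE 0.55). The lowest count of any member in any mouse was 64.4 (Fkbp11, control 3).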

Other observations

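A further motif, the heat shock element (GAA, 2 free bases, TTC, 2 free bases, GAA, on either strand), was searched after the data were seen. It was in the windows of 0 of the 35 matched ER genes and of 3 of 13 matched cytosolic and mitochondrial chaperones (Hsph1, Hspd1 and Hspe1), against 0.662% of the 27025 genes with a window. The log2 fold changes of those 3 were -1.45 for Hsph1, -0.28 for Hspd1 and -0.27 for Hspe1. Hspd1 and Hspe1 start next to each other on opposite strands and their exons overlap, so their windows may hold the same site. The ERSE was in 0 of the same 13. An exact match says only that these letters are in the window, and its absence nothing about the factor.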
